A study of Mus musculus with 8 samples.

Results

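The trace amine-associated receptors (Taar genes) form a small family of odorant receptors. The 10 described here are Taar2, Taar3, Taar4, Taar5, Taar6, Taar7a, Taar7b, Taar7d, Taar7e and Taar9, taken by gene symbol from a table of 21765 genes. The table holds 14 Taar genes in all, and the remaining 4 (Taar7f, Taar8a, Taar8b and Taar8c) are given only where they bear on a result. Polysome RNA of the mouse main olfactory epithelium was sequenced in 8 libraries. Tissue was taken up in 100 µg/mL cycloheximide, which holds ribosomes on their transcripts, and its lysate was spun through sucrose. Lighter gradient fractions (27 to 34) were pooled as early polysomes and heavier ones (35 to 42) as late polysomes. Controls (WT) were Mex3a flox/flox or Mex3a flox/+ mice with no Cre named. Conditional knockouts (cKO) were Mex3a flox/flox mice carrying a Cre. Both genotypes therefore carried at least 1 floxed allele. Early and late polysomes of both genotypes made 4 groups of 2 libraries each, and the early and late library of a number came from 1 lysate, so that there were 4 lysates. The labels give no age, and do not say whether animals were pooled. The series' design text speaks of sorted cells and of HyperTRIBE transgenes (tetO-HyperTRIBE-mCherry, or its Mex3a fusion tetO-Mex3a-HyperTRIBE-mcherry) under gg8-tTA, alone or with OMP-tTA, which the labels of these 8 libraries do not mention.

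Taar proteins are receptors coupled to G proteins. Most are found in sensory neurons of the nose, where each neuron expresses 1 receptor gene out of the Taar or the much larger odorant receptor (Olfr) repertoire, and most Taar neurons lie in the dorsal epithelium. They detect volatile amines, and signal through the same olfactory G protein, adenylyl cyclase and cyclic nucleotide-gated channel as Olfr proteins. Mex3a is an RNA-binding protein. The more ribosomes a transcript carries, the deeper it travels in a sucrose gradient, and a longer coding region has room for more of them.

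The 10 genes lie in 1 cluster on mouse chromosome 10 (GRCm38, GENCODE annotation), from Taar2 at 23938572 to Taar9 at 24109534. Taar2 has 2 exons and the other 9 genes have 1, which holds the whole coding region. Their coding regions are of nearly the same length, from 1014 nt in Taar5 to 1077 nt in the 4 Taar7 genes. Identity between coding regions was 93.2 to 95.0% among the Taar7 genes and at most 69.9% in every other pair of the 10. The opening of the coding region (bases 1 to 60 from the start codon, GENCODE transcripts) is shown for the Taar7 genes, because reads must be told apart between these near copies. Capitals mark bases that differ from Taar7d.
Taar7a: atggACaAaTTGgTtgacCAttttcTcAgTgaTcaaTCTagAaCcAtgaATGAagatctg
Taar7b: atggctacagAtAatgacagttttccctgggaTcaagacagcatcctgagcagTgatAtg
Taar7d: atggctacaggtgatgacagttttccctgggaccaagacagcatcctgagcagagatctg
Taar7e: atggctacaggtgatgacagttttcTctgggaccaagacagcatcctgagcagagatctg

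Taar7a differs from Taar7d at 23 of these positions, Taar7b at 5 and Taar7e at 1. Over the whole 1077 nt the differences number 70, 65 and 67. Of all stretches of 50 nt, 36.5% in Taar7a, 39.9% in Taar7b, 29.5% in Taar7d and 51.7% in Taar7e occur unchanged in another Taar gene, against 1 stretch in Taar6 and none in Taar2, Taar3, Taar4, Taar5 and Taar9. How reads that match several copies were counted is not given in the sources used here. The values of the Taar7 genes are thus uncertain in their level and in their split between copies.

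**Figure D1:**
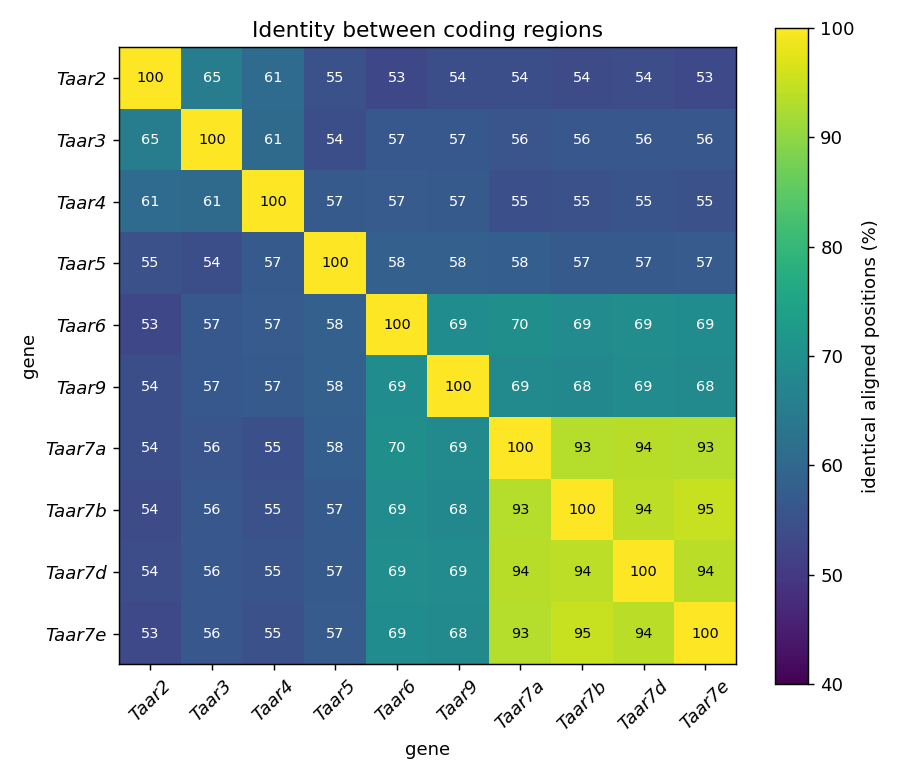
Identity between the coding regions of the 10 Taar genes, in percent of aligned positions, with genes on both axes. The 4 Taar7 genes form a block of 93 to 95%, while the other pairs reach at most 70%.

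The start codons of the 4 genes whose late and early levels differed are shown with the 9 bases before and the 8 bases after, in RefSeq sequence of GRCm38, with the start codon in capitals. The RefSeq promoter table held 9 of the 10 genes.
Taar6: agcagcagcATGggcagtaa
Taar7a: gtaatatacATGgacaaatt
Taar7d: gtagcatacATGgctacagg
Taar9: ctggaggcaATGacaagcga

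Ribosomes start more readily at a start codon with a purine 3 bases before it and a G right after it. A purine at the first position was found in 4 of the 9 genes and in 81.5% of 49701 annotated coding transcripts. G at the second was found in 7 of 9 and in 47.8%, and both in 3 of 9 and in 39.0%. Taar6 has both bases, Taar7a and Taar7d have the G without the purine, and Taar9 has the purine without the G. Whether these bases bear on the late against early differences was not tested.

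Mex3a, the targeted gene, was at 97.4 and 116 TPM (transcripts per 1000000) in WT early libraries and at 93.2 and 95.6 in WT late, against 13.9 and 19.8 in the early and 11.1 and 13.8 in the late libraries of cKO mice. In 1 label, against the title, WT early replicate 2 is given the cKO genotype, and its Mex3a level was that of the other WT libraries. Total reads per library, inferred from the spacing of the TPM values, ran from 7783903 to 12782194 and were lowest in cKO late replicate 2. Across the genes tested, the 2 libraries of a group correlated at 0.978 to 0.985. Omp, the marker of mature olfactory neurons, was listed at 2439 to 5393 TPM. Summed markers of mature olfactory neurons (12 genes) stood at 10921 to 13303 scaled TPM (TPM after scaling between libraries) in early and 7714 to 9223 in late libraries, while sustentacular markers (8 genes) stood at 7093 to 8493 and 10807 to 12519 and markers of Bowman's glands (6 genes) at 3691 to 8269 and 9385 to 17471. Each of these marker genes was above 0. Past the test in late against early polysomes, gene by gene, were 9 higher and 3 lower of 12 mature neuron markers (median log2 difference 0.48, while their sum was lower), 7 higher and 1 lower of 8 sustentacular markers and 6 higher of 6 Bowman's gland markers, where 34.3% of all genes tested were higher and 34.6% lower. Their part in the Taar values was not tested, nor was that of the depth.

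Taar transcripts were detected at low levels in every library. Summed, the 10 genes reached 35.5 to 40.7 TPM in early and 43.5 to 52.6 TPM in late libraries, which rests on 149 to 201 reads per library. In scaled TPM the early sums were 35.7 to 38.4 in WT and 37.9 to 43.3 in cKO. The late sums were 40.5 to 42.6 in WT and 47.1 to 49.8 in cKO. After scaling, early and late sums thus overlapped across the genotypes, though not within either one. TPM is corrected for length, so levels can be compared between genes, with the Taar7 genes as an exception. Their levels also depend on how reads that match several copies were counted, which is not known here. Taar6 was highest on average, with a median of 7.76 TPM over the 8 libraries (range 3.58 to 16.0). Next came Taar7b with a median of 7.23 TPM (4.02 to 8.78), Taar9, a receptor for polyamines and other amines, with 6.09 TPM (2.83 to 9.54), and Taar7a with 5.73 TPM (3.06 to 9.98). Middle levels were those of Taar7d (median 4.30 TPM, 2.75 to 5.75), Taar2 (2.61 TPM, 1.34 to 9.82) and Taar4, the receptor for phenylethylamine (3.06 TPM, 1.61 to 5.73). At the bottom stood Taar7e (1.53 TPM, 0.344 to 2.12), Taar3, a receptor for isoamylamine (1.22 TPM, 0 to 2.38), and Taar5, the receptor for trimethylamine (0.825 TPM, 0.269 to 2.03). The ranges of all neighbours in this order overlapped, so no step of it exceeded the spread over libraries.

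**Figure D2:**
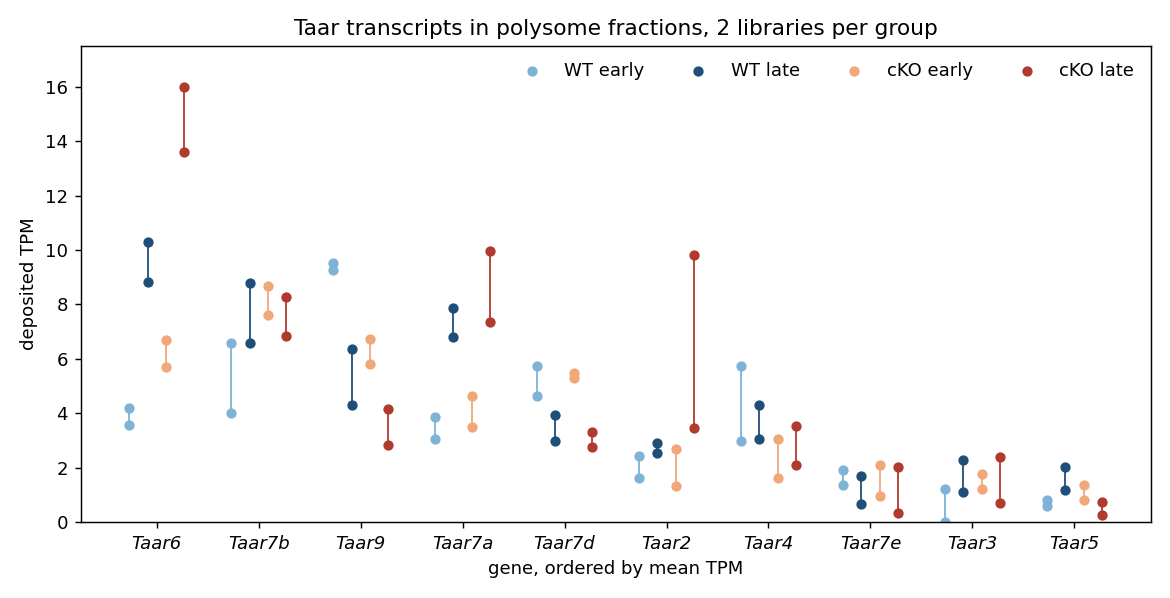
Deposited TPM of the 10 Taar genes (y axis) in each library, ordered by mean TPM (x axis), with the 2 libraries of a group joined by a line. Early and late points separate in Taar6, Taar7a and Taar7d, overlap in Taar9 by 1 WT late and 1 cKO early point, and mix in the other 6 genes, and the single high Taar2 point, at 9.82 TPM, is cKO late replicate 2.

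Reads set the limit for the rarer genes. Taar3 had 0 to 10 reads per library, with 0 in WT early replicate 1, a count that allows up to 3 reads. Taar5 had 1 to 9 reads and Taar7e 1 to 10. Taar2 had 6 to 27 reads and Taar4 8 to 29. Even the most abundant members rested on 18 to 61 reads (Taar6), 21 to 41 (Taar7b), 8 to 48 (Taar9), 16 to 37 (Taar7a) and 8 to 30 (Taar7d). Taar5 averaged 0.976 TPM over the 8 libraries, under the mean of 1 TPM set for testing, so that 9 of the 10 genes were tested.

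The question of the first comparison was whether Taar transcripts lay deeper or shallower in the polysome gradient. Members of the family went in opposite directions. Taar6 and Taar7a were about 2 times as high in late as in early polysomes (ratios 2.23 and 1.95), and Taar7d and Taar9 stood in late polysomes at 0.567 and 0.519 times their early level. These 4 differences had the same direction in 4 of 4 lysates, in both genotypes, and their early and late libraries did not overlap in scaled TPM. The 4 genes are those that passed this same comparison, so the agreement of their libraries adds no separate support. Early and late libraries did not overlap in 62.5% of all genes tested. The share of all genes with 4 lysates in the same direction was not computed. TPM is a share of the RNA in each pool, so a ratio compares shares and not amounts. In whole tissue, fewer cells of a type and less RNA per cell cannot be told apart.

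Taar6 was at 3.58 and 4.21 TPM (WT) and 6.68 and 5.71 TPM (cKO) in early polysomes, and at 10.3 and 8.83 TPM (WT) and 16.0 and 13.6 TPM (cKO) in late polysomes. Every late value lay above every early one. Its mean scaled TPM rose from 5.23 ± 1.56 to 11.6 ± 3.36 (SD, n = 4 libraries each), a log2 difference of 1.02 with a standard error (SE) of 0.12 (limma, adjusted p = 1.26e-04). Here and below, log2 differences are on the scale of log2(scaled TPM + 1), which understates the change of low genes, and p-values are adjusted over 16097 genes (Benjamini-Hochberg, threshold 0.05).

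Taar7a was at 3.06 and 3.87 TPM (WT) and 3.51 and 4.65 TPM (cKO) in early polysomes, and at 6.81 and 7.87 TPM (WT) and 7.35 and 9.98 TPM (cKO) in late polysomes. The mean rose from 3.91 ± 0.784 to 7.61 ± 1.29 scaled TPM (SD, n = 4 libraries each), by 0.81 on the log2 scale (SE 0.15, limma adjusted p = 0.00125). The 4 lysates were close to each other in this gene, with differences of 0.76 to 0.87.

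Taar7d, a near copy of Taar7a, went the other way. It was at 5.75 and 4.64 TPM (WT) and 5.47 and 5.29 TPM (cKO) in early polysomes, and at 3.95 and 2.98 TPM (WT) and 3.30 and 2.75 TPM (cKO) in late polysomes. The mean fell from 5.45 ± 0.489 to 3.09 ± 0.506 scaled TPM (SD, n = 4 libraries each), a log2 difference of -0.66 (SE 0.14, limma adjusted p = 0.00310).

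Taar9, at the other end of the cluster from Taar2, was at 9.26 and 9.54 TPM (WT) and 5.82 and 6.75 TPM (cKO) in early polysomes, and at 4.29 and 6.35 TPM (WT) and 4.17 and 2.83 TPM (cKO) in late polysomes. The overlap of the deposited values is confined to WT late replicate 2 and cKO early replicate 1. After scaling between libraries the early and late values no longer overlapped. Its mean fell from 8.07 ± 1.74 to 4.19 ± 1.33 scaled TPM (SD, n = 4 libraries each), a log2 difference of -0.82 (SE 0.16, limma adjusted p = 0.00177). As a share of the 10 genes' TPM, Taar9 went from a mean of 21.0% in early to 9.55% in late libraries, and Taar6 from 13.4% to 25.6%.

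The other 5 genes tested did not pass. Taar2 was higher in late polysomes in 4 of 4 lysates, by 0.69 (SE 0.28, limma adjusted p = 0.0555), but the lysates ran from 0.09 to 2.08. Its values were 1.62, 2.45, 2.68 and 1.34 TPM in early and 2.55, 2.92, 3.48 and 9.82 in late libraries, and only cKO late replicate 2 stood clear of the early ones by more than 1 TPM. Taar7b, a near copy of Taar7a and Taar7d, differed by 0.09 (SE 0.17), with 1 lysate at 0.88 and the other 3 between -0.21 and -0.11. Taar3 differed by 0.33 (SE 0.34), Taar4 by -0.06 (SE 0.24) and Taar7e by -0.36 (SE 0.32), each with 2 lysates up and 2 down. The sign of the Taar4 value turned with the scaling (0.02 for TPM as deposited, 0.07 after quantile normalization). Taar5, not tested, had a mean difference of -0.01, with 17 reads in the early and 17 in the late libraries.

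**Figure D3:**
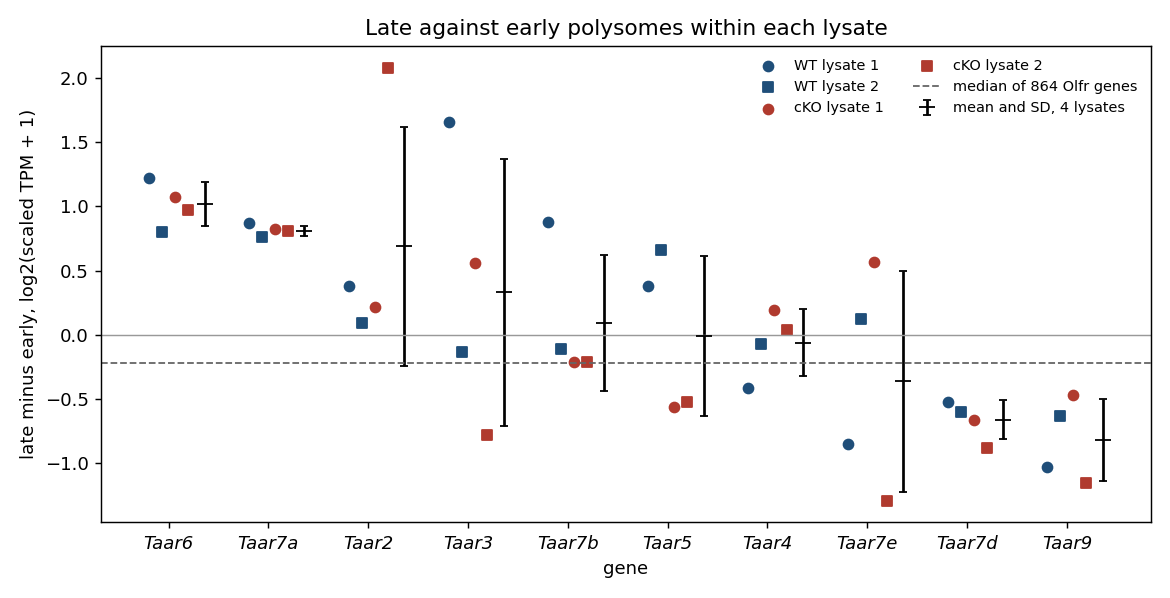
Late minus early difference in log2(scaled TPM + 1) (y axis) for each Taar gene (x axis) in 4 lysates, with the mean and SD over lysates beside them and the median of the 864 Olfr genes tested as a dashed line. All 4 lysates lie above 0 in Taar6, Taar7a and Taar2 and below 0 in Taar7d and Taar9.

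In all, 4 of 9 Taar genes were past the threshold, 2 higher and 2 lower in late polysomes. The background was high, as 68.9% of all genes tested were called, 34.3% as higher and 34.6% as lower, and the early and late libraries did not overlap in 62.5%. The count in the family was thus not above that of genes at large, also with voom, which called 4 of 9 Taar genes and 70.2% of all genes. The median of the 9 genes was 0.09, against -0.01 over all genes. Among the 864 Olfr genes tested, 36 were higher and 214 lower in late polysomes, with a median of -0.22. These counts moved with the scaling, to 51 higher and 158 lower (median -0.14) for TPM as deposited and to 61 higher and 118 lower (median -0.07) after quantile normalization. Of these Olfr genes, 99.8% had a lower value than Taar6 and 99.2% a lower one than Taar7a, while 10.2% lay below Taar7d and 3.59% below Taar9. The Olfr genes were not matched to the Taar genes by level, and the log2 scale used understates the change of low genes. Taar genes made up 1.17 to 1.34% of the summed Taar and Olfr TPM in early libraries and 1.53 to 2.11% in late ones. The deposited Olfr sum was 2695 to 3191 TPM in early and 2324 to 2799 TPM in late libraries.

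Since coding length bears on how many ribosomes fit, the Taar genes were set beside genes of their own length. The 465 genes tested with a longest coding region of 1014 to 1077 nt had a median of -0.11 and quartiles of -0.54 and 0.34, and 69.2% of them were called. Taar6 lay above 96.3% and Taar7a above 92.3% of these genes, Taar7d above 15.9% and Taar9 above 8.60%. The 4 Taar genes that moved fell on both sides of the median of these genes. Taar7a and Taar7d, both of 1077 nt, differed from each other by more than the quartile range. The genes were matched by coding length and not by level, and the part of coding length in the differences was not tested.

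**Figure D4:**
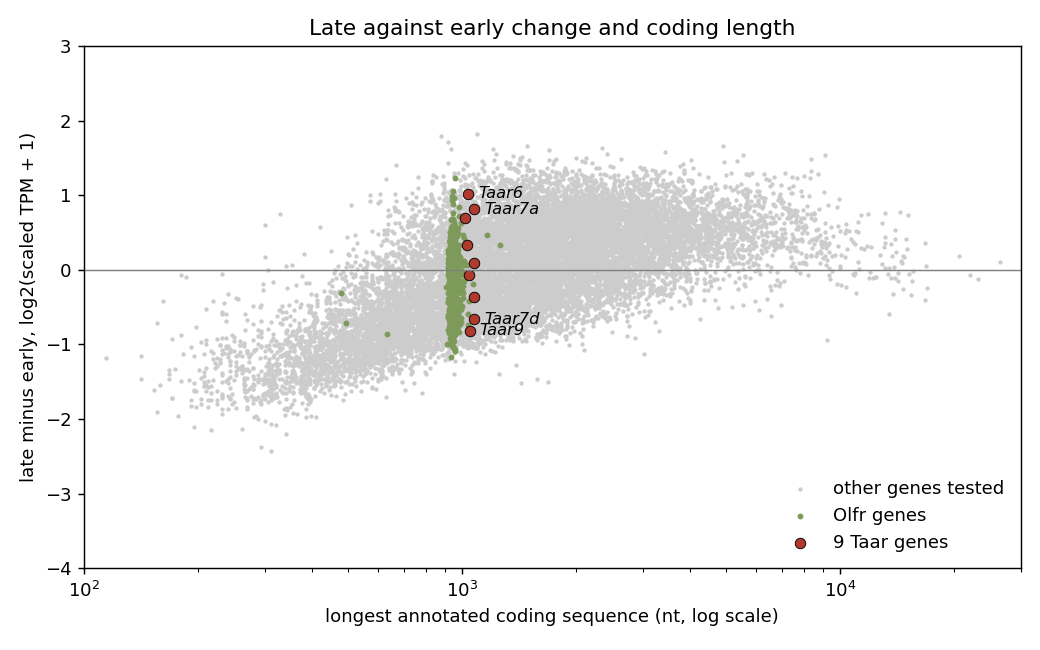
Late minus early difference in log2(scaled TPM + 1) (y axis) against the longest annotated coding region in nt (x axis, log scale) for the genes tested that have one in the annotation. The 9 Taar genes share nearly 1 length and spread from -0.82 (Taar9) to 1.02 (Taar6), and the Olfr genes centre on -0.22.

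Within WT alone the same 4 genes passed, out of a background of 54.8% of genes. The differences in WT were 1.01 for Taar6 (limma adjusted p = 0.00172), 0.81 for Taar7a (0.0111), -0.56 for Taar7d (0.0437) and -0.83 for Taar9 (0.0138). The Taar7d call was the least secure and was lost in 11 of its 18 alternatives, with adjusted p values up to 0.224, and the count fell to 2 without WT early replicate 1, without WT early replicate 2 or without WT late replicate 2. Voom called 3 of 9 in WT and 58.2% of all genes. Within cKO alone 5 genes passed, out of a background of 58.1%. These were Taar6 (1.02, limma adjusted p = 0.00134), Taar7a (0.82, 0.00993), Taar7d (-0.77, 0.0110), Taar9 (-0.81, 0.0141) and Taar2 (1.15, 0.0358). The Taar2 call rested on cKO late replicate 2, with 9.82 TPM and 27 reads, which was also the library of lowest depth. Without it the difference was 0.54 (limma adjusted p = 0.228), and with each lysate as a replicate block the adjusted p was 0.0591. Voom called 2 of 9 in cKO, against 58.4% of all genes. The count in cKO was 1 without cKO late replicate 2 and 2 without cKO early replicate 2. The difference between the genotypes was tested by the interaction.

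The second question was whether loss of Mex3a changed Taar levels on polysomes. No Taar gene passed the test between genotypes, in early polysomes, in late polysomes or on the mean of each lysate's 2 libraries (0 of 9 in each by limma, and 0 by voom on the inferred reads). The background was as low: 0.0435% of genes were called in early polysomes, 0.0124% in late polysomes and 0.00621% on lysate means by limma, and 0.0746%, 0.0933% and 0.361% by voom. At an unadjusted p under 0.05, 2 of the 9 genes were found in early polysomes (Taar6 and Taar7b), 2 in late polysomes (Taar2 and Taar6) and 2 on lysate means (Taar6 and Taar9), beside 1071, 1506 and 1823 of all 16097 genes.

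Taar6 had the lowest unadjusted p on lysate means among the 9 genes. Its cKO values lay above its WT values in both fractions, with a log2 difference of 0.61 in early polysomes (SE 0.17, limma adjusted p = 0.665), 0.62 in late polysomes (SE 0.17, limma adjusted p = 0.376) and 0.61 on lysate means (SE 0.13, limma unadjusted p = 0.00308, adjusted p = 0.328). Across all genes tested, cKO and WT libraries were apart in the same direction in both fractions in 13.2%, and cKO was the higher in 6.57%. On lysate means the adjusted p of Taar6 ran from 0.0797 to 0.877 over the alternatives. Taar9 differed the opposite way, by -0.46 on lysate means (SE 0.15, limma unadjusted p = 0.0207, adjusted p = 0.385). Its early values were 9.26 and 9.54 TPM in WT and 5.82 and 6.75 TPM in cKO (log2 difference -0.47, SE 0.22, limma adjusted p = 0.776). In late polysomes the scaled values of the genotypes overlapped.

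On lysate means, the unadjusted p of the other 7 genes was above 0.05. Their differences there were 0.46 for Taar2 (SE 0.19), 0.34 for Taar3 (SE 0.23), 0.32 for Taar7b (SE 0.13), 0.23 for Taar7a (SE 0.17), -0.01 for Taar7d (SE 0.16), -0.04 for Taar7e (SE 0.21) and -0.45 for Taar4 (SE 0.28). The signs of the Taar7d and Taar7e values turned after quantile normalization (0.00 and 0.03). Taar7b stood at 4.02 and 6.57 TPM in WT early against 7.61 and 8.67 in cKO early libraries, and differed by 0.62 there (SE 0.23, limma adjusted p = 0.720) and by 0.02 in late polysomes. Taar2 differed by 0.00 in early and by 0.92 in late polysomes (SE 0.40, limma adjusted p = 0.532), where cKO late replicate 2 again held the high value. Of the Taar genes outside the 10, Taar7f was higher in cKO in both fractions, by 0.63 on lysate means (SE 0.19, limma adjusted p = 0.374). The share of Taar in the summed Taar and Olfr TPM was 2.02 and 2.11% in cKO late against 1.61 and 1.53% in WT late libraries. It was 1.33 and 1.34% in cKO early against 1.28 and 1.17% in WT early libraries.

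**Figure D5:**
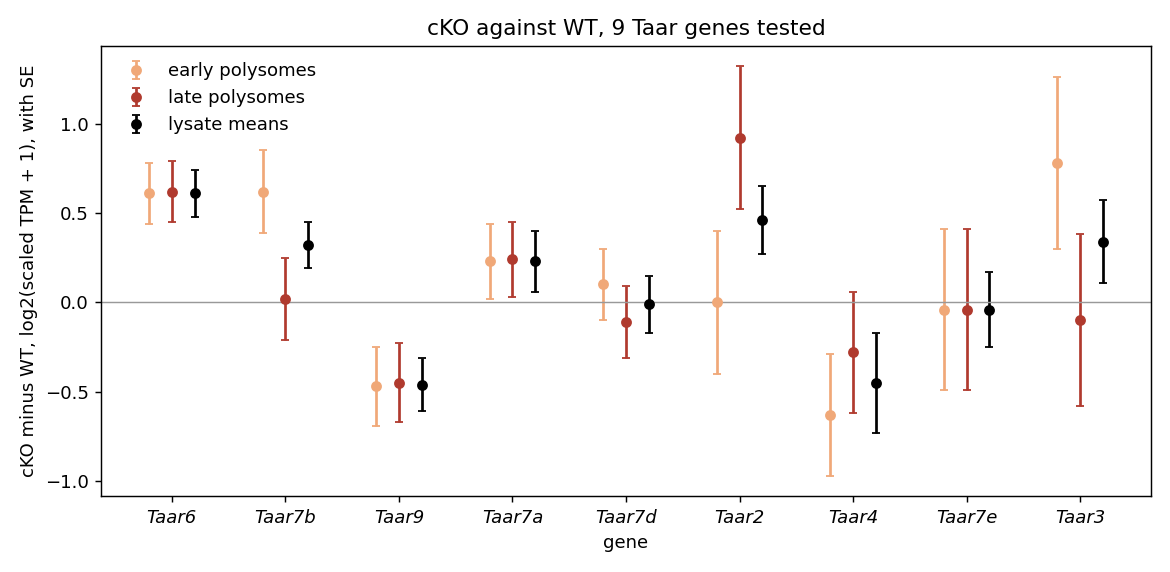
cKO minus WT difference in log2(scaled TPM + 1) with its SE (y axis) for the 9 Taar genes tested (x axis), in early polysomes, late polysomes and on lysate means. Taar6 lies near 0.6 and Taar9 near -0.46 in all 3, and none of the values passed the threshold.

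The third question was whether the late against early difference itself depended on the genotype. For the 4 genes that moved it was nearly equal in the genotypes: the cKO difference less the WT one was 0.01 in Taar6 (SE 0.24), 0.00 in Taar7a (SE 0.30), -0.21 in Taar7d (SE 0.28) and 0.02 in Taar9 (SE 0.32). Larger values came with larger errors, 0.92 in Taar2 (SE 0.57), -0.88 in Taar3 (SE 0.68) and -0.60 in Taar7b (SE 0.33). None of the 9 genes passed (limma adjusted p = 1.000 in each), none had an unadjusted p under 0.05, and voom also called 0. Of all genes, 0.00621% passed, and 459 had an unadjusted p under 0.05.

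Genes that work beside the receptors were read from fixed lists, whose counts stand against a background of 34.3% of all genes higher and 34.6% lower in late polysomes. Of the olfactory transduction genes, 10 were higher and 5 lower of 18 tested in late polysomes (median 0.24). Among the abundant genes of the list, Stoml3, a protein of olfactory neurons (-0.76), and the G protein subunit genes Gnb1 (-0.61) and Gng13 (-1.73) were lower. Of 4 genes for receptor export, the chaperones Rtp1 (0.48, SE 0.08) and Rtp2 (0.48, SE 0.07) rose, and Reep6 (-0.74) and Reep1 (-0.45) fell. Among 15 genes linked with receptor choice, 9 were higher and 6 lower (median 0.35), with the transcription factors Ebf2 (0.76) and Ebf3 (0.35) up and Lhx2 (-0.80) and Atf5 (-0.93) down. All 4 genes of the fixed list named for the dorsal zone, where most Taar neurons lie, were higher in late polysomes (median 0.91). These were Acsm4 (1.09) and the dorsal marker enzyme Nqo1 (1.01), and Bcl11b (0.82), a transcription factor, and Robo2 (0.74), an axon guidance receptor. Whether each of them, Bcl11b among them, is confined to that zone was not tested, so the count describes the list and not the zone. Of 5 genes listed with the ventral zone, 3 were higher and 0 lower (median 0.41), among them Nrp2, an axon guidance receptor, by 0.52. All changes named here passed by limma, and 0 of the 46 genes of these 5 lists passed between genotypes on lysate means or in the interaction by limma or by voom. At an unadjusted p under 0.05, limma found 6 of the 46 on lysate means and 1 in the interaction. Of all 16097 genes it found 1823 and 459. Voom found 15 and 2 of the 46, but its share over all genes at this threshold was not computed, so these 2 counts cannot be read as particular to the lists.

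Neighbours of the cluster on chromosome 10 moved in both directions too. Slc18b1, a vesicular transporter for polyamines, on the Taar2 side, was lower in late polysomes, by -0.65 on the log2 scale (limma adjusted p = 4.47e-04). Vnn1, between it and Taar2, was at 0.566 to 2.37 TPM and did not pass (0.54, limma adjusted p = 0.0540), and Vnn3 was at 0 to 0.614 TPM. On the Taar9 side, Stx7, a syntaxin of endosomes, was lower by -0.92 (limma adjusted p = 2.82e-05) and Moxd1, a monooxygenase gene, rose by 1.01 (limma adjusted p = 1.93e-04). The next gene, Ccn2, was not matched in the table by this symbol.

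The genes whose pattern over the 8 libraries was most like that of the summed Taar genes were sought among 12242 genes with a mean scaled TPM of at least 5. The 5 nearest by Pearson correlation were Neurog1, a transcription factor of neuronal progenitors (r = 0.963), Col9a1 (0.936), Gpatch3 (0.935), Rcor2 (0.928) and Arhgef16 (0.925). The 8 points share 4 lysates and 2 kinds of fraction, so the values are a description only.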

How the data were processed

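The authors deposited 1 table of TPM per gene for the 8 libraries, each column summing to 1000000. Per the submitters' processing notes, FastQC, cutadapt, STAR, DESeq2 and the build mm10 were used; versions, annotation and the counting of reads that match several genes are not given in the sources used here. Per the labels' protocols, about 42 fractions of 350 µL were collected, 50 µL of each was pooled, and libraries were made with a SMARTer stranded total RNA kit. The Cre line is not reported here.

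Groups and replicate numbers came from the titles. Nothing states that replicates were separate animals, so p-values measure the spread between these samples. TPM was scaled by median ratios, and log2(scaled TPM + 1) of the 16097 genes with a mean TPM of at least 1 was fitted by limma 3.58.1 (R 4.3.3; all 4 groups in 1 fit, mean-variance trend, two-sided, Benjamini-Hochberg adjustment). Genotype was also tested on lysate means. TPM states no depth. Whole reads were inferred from TPM steps (tolerance 0.001) for 19783 genes, which is 100% of those above 0 in at least 2 libraries, with lengths anchored on GENCODE coding lengths of Taar genes; tested on simulated data, the inference was exact for 99.3% of 19370 genes. Limits on reads cover counting error only. Library names tie the early and late library of a lysate; their deviations from group means correlated at 0.0863 in WT and 0.0502 in cKO.

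On simulated data with 200 genes changed 3-fold, limma (16059 genes) recovered 188 of 191 tested changes in late against early on average, 180 in WT and 170 in cKO. Between genotypes it recovered 179 of 192 in early polysomes, 176 in late polysomes and 191 on lysate means. False calls numbered 16 to 25 in these comparisons and 5 in the interaction, where no change was simulated. Recovery of differences under 3-fold, such as the 0.61 of Taar6 on lysate means, was not tested. Recovery at the low read counts of the Taar genes was not tested separately, so these totals do not give it for the family. In the deposited data, Mex3a differed by -2.67 on lysate means (limma adjusted p = 0.0227, and 0.165 with no filter on low values). The 10 genes and all lists were chosen with earlier results of these data known. Named were all 10 genes, Mex3a, up to 4 genes of highest mean per list, 3 neighbours on each side of the cluster and the 5 genes of most similar pattern. Alternatives were pseudocounts of 0.1 and 0.5, no filter, a stricter filter (mean TPM 5), unscaled TPM, quantile normalization, no trend, voom on inferred reads (also with no filter, added after seeing the data), replicate blocks, only the 4 libraries compared and leaving out each library. Coding identity was computed with Biopython 1.88, and figures were drawn with matplotlib 3.10.9.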

Additional observations from a re-analysis of the deposited data

Results flagged for a closer look

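Taar5, the receptor for trimethylamine, moved in opposite directions in the genotypes. Between late and early polysomes it differed by 0.38 and 0.66 on the log2 scale in the 2 WT lysates and by -0.56 and -0.52 in the 2 cKO lysates. The mean cKO difference less the mean WT one was -1.06. Taar5 rested on 1 to 9 reads per library and missed the filter, so this difference was not tested in the main analysis. With no filter on low values, limma gave an adjusted p of 1.000 for it, and voom on the inferred reads did too. Taar4 likewise had opposite signs in the genotypes, with -0.41 and -0.07 in the WT lysates against 0.19 and 0.04 for cKO, and its interaction was tested (0.35, SE 0.48, limma adjusted p = 1.000).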

How the results depend on the processing

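The 4 calls in the average late against early comparison (Taar6, Taar7a, Taar7d and Taar9) held in every alternative in which the gene was tested, with adjusted p up to 0.0264, and the count ran from 3, of 4 genes with a mean TPM of at least 5, to 5, where Taar2 was added. Taar2 passed for TPM as deposited (0.78), after quantile normalization (0.82), and without cKO early replicate 1 or cKO late replicate 1. Leaving out 1 library at a time, the count in WT ran from 2 to 4 and that in cKO from 1 to 5. The cKO count was 3 with a mean TPM of at least 5 and 2 with voom, also with voom and no filter. All counts between genotypes and in the interaction stayed at 0. With each lysate as a replicate block, the counts were 4 on average, 4 in WT and 4 in cKO, where Taar2 was lost (1.15, adjusted p = 0.0591), and the block changed no other call. WT and cKO replicates share only a number. The correlation of deviations between same-numbered libraries was 0.332 (early) and 0.143 (late), and a block on the number left the genotype counts at 0.

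Among the average late against early values and the genotype values on lysate means, 4 that were not called changed sign. The Taar4 late against early value was 0.02 for TPM as deposited and 0.07 after quantile normalization. On lysate means, the genotype value of Taar7d was 0.00 after quantile normalization, 0.07 with voom and 0.08 with voom and no filter, and that of Taar7e was 0.03, 0.07 and 0.07. Without 1 library, Taar4 ran from -0.25 to 0.12, Taar7b from -0.06 to 0.24, and on lysate means Taar7d from -0.15 to 0.13 and Taar7e from -0.16 to 0.08. A lone library left in a group is assumed to vary like the other groups, and leaving one out of a lysate mean drops that lysate. In other comparisons, values near 0 changed sign too, such as the interactions of Taar6 (-0.05) and Taar9 (-0.03) with a pseudocount of 0.1 and the cKO late against early value of Taar3 (0.13) after quantile normalization. Causes were not tested. TPM as deposited moved the median of all genes in late against early from -0.01 to 0.09 and the split of calls to 6258 higher and 4874 lower, from 5519 and 5575. Depth limits Taar3, Taar5 and Taar7e most, with at most 10 reads per library.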
